A study of Mus musculus with 16 samples.

Results

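The interaction of antigen and dexamethasone (DEX) was measured in bone marrow-derived mast cells (BMMCs), that is, whether the response of each gene to antigen in cells given DEX departed from the response to antigen in cells without DEX. All 16 of the 16 samples of the series were used as a 2 by 2 layout of antigen and DEX, chosen by the treatment labels and not by any measured value. The 4 treatments were IgE at 0.05 µg/ml for 3 h (IgE), IgE followed by dinitrophenyl on bovine serum albumin at 200 ng/ml for 1 h (IgE DNP), DEX at 1e-07 M for 8 h with IgE (IgE DEX), and all 3 agents (IgE DNP DEX). IgE was thus given to every sample, and no group was left without it. These are the doses of the labels, and the text of the study gives a higher IgE dose. Each treatment had 4 samples, of which 2 were from PEP+/+ and 2 from PEP-/- male C57BL/6 mice aged 8 to 10 weeks, whose marrow was cultured for 4 weeks with stem cell factor and IL3. PEP is the PEST-domain-enriched tyrosine phosphatase encoded by Ptpn22. The labels number 1 replicate of each group and letter the other (replicate sets 1 and 2). They do not say whether the sets were separate mice or cultures, so p-values measure the spread between these samples, which may be technical. The study calls them biological replicates without saying more. Each of the 4 combinations of genotype and set held 1 sample of every treatment and is called a block below.

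In a mast cell, IgE sits on the high-affinity receptor FcεRI until a multivalent antigen cross-links it. The receptor then signals through Lyn and Syk to calcium, MAP kinases, NFAT and NF-kB, and the cell releases its granules and transcribes cytokine and chemokine genes within the hour. DEX binds the glucocorticoid receptor, a transcription factor that induces genes such as Fkbp5, Tsc22d3 and Dusp1 and represses many genes that NF-kB and AP-1 drive. Some genes, among them Nfkbia and Dusp1, are known targets of both routes.

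The values are counts of reads per gene, scaled to counts per 1000000 reads on genes (CPM) with TMM factors. The interaction is the log2 antigen response with DEX (IgE DNP DEX against IgE DEX) minus the log2 antigen response without DEX (IgE DNP against IgE). A value of 0 means that the folds of both agents multiply, a negative value (less than additive on the log2 scale) that the level with both agents fell short of that product, and a positive value (more than additive) that it exceeded it. It was fitted with edgeR's quasi-likelihood test on all 16 samples with genotype and replicate set as terms, and called at a Benjamini-Hochberg adjusted p under 0.05. Values per sample are given in the order PEP+/+ replicate 1, PEP+/+ replicate 2, PEP-/- replicate 1 and PEP-/- replicate 2, errors of log2 values are SE, and errors of CPM means are SD (n = 4). Block values of the interaction come from log2 CPM with edgeR's prior count of 2, which draws those of low genes toward 0.

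Between 8612531 and 22143526 reads per sample lay on genes, with a median of 12814043.5. The targeted gene Ptpn22 measured 0 to 15.9, 1.39 to 104, 0 to 71.6 and 0.547 to 175 CPM over both genotypes in the 4 treatments as listed above. Its PEP-/- samples held 0 to 3.03 CPM and its PEP+/+ samples 11.3 to 175 CPM, so the genotypes did not overlap. Reads aligned to several places were 21.45 to 25.56% in IgE, 24 to 31.52% in IgE DNP, 25.1 to 27.66% in IgE DEX and 30.3 to 37.76% in IgE DNP DEX, and the part of this difference in the results was not tested. The 10 mast cell markers examined summed to 67998 to 107130 CPM per sample, and 1 of them, Hdc, had a called interaction. No gene of the 10 other marker lists was called, but at most 4 members of any of them were tested. For T cells, B cells and fibroblasts no member was tested. With 2.4% of all genes tested called, so few members without a call do not stand apart from other genes. Summed markers of T cells, B cells and fibroblasts stayed under 1 CPM in every sample. Macrophage markers summed to 18.2 to 58.3 CPM. Megakaryocyte markers summed to 2145 to 4121 CPM, mostly Itga2b (1939 to 3919 CPM) and Gp1ba (137 to 344 CPM), while Pf4 was at most 0.189 CPM. Eosinophil markers summed to 5.41 to 27.7 CPM, mostly Ccr3 (4.17 to 22.1 CPM). Erythroid markers reached at most 11.5 CPM, dendritic cell markers 3.26 CPM and neutrophil markers 2.37 CPM. Basophil markers summed to 539 to 623 CPM in IgE, 749.9 to 883 CPM in IgE DNP, 229 to 393 CPM in IgE DEX and 431 to 479 CPM in IgE DNP DEX. That sum was mostly Cd200r3, with means of 527, 747, 245 and 389 CPM in the same order. The other members varied less, with means of 26.4, 33.1, 23.4 and 29.5 CPM for Mcpt8 and 22.8, 22.8, 23.9 and 29.5 CPM for Prss34. Itga2 was at most 0.617 CPM. In bulk samples, fewer cells of a type and less RNA per cell cannot be told apart.

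Of the 13305 genes tested, 319 (2.4%) had a called interaction. The response was less than additive for 204 (1.53%) and more than additive for 115 (0.864%). The median interaction over all genes was 0.00127, and 1763 genes had an unadjusted p under 0.05. Of the 204, 202 had a negative value in all 4 blocks and 116 a size of at least 1 on the log2 scale. All 115 had a positive value in all 4 blocks and 36 reached a size of 1. Among all 13305 genes, 3534 had 1 sign in all 4 blocks. The blocks hold the samples of the fit, so the shared sign describes the called genes and is not separate support. Without the replicate set as a term, 71 genes were called (53 less and 18 more than additive), each of which was among the 319. Without PEP-/- IgE DNP replicate 2, 203 genes were called, of which 200 were among the 319.

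The antigen responses themselves were broad. Without DEX, antigen raised 2627 genes (19.7%) and lowered 2771 (20.8%), and with DEX it raised 2678 (20.1%) and lowered 2793 (21%). These comparisons share no sample, and 1878 genes rose in both, which is 71.5% of those raised without DEX and 70.1% of those raised with it. A total of 1973 fell in both (71.2% and 70.6%). DEX alone raised 1889 genes (14.2%) and lowered 1990 (15%), and in cells given antigen it raised 2344 (17.6%) and lowered 2513 (18.9%).

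**Figure D1:**
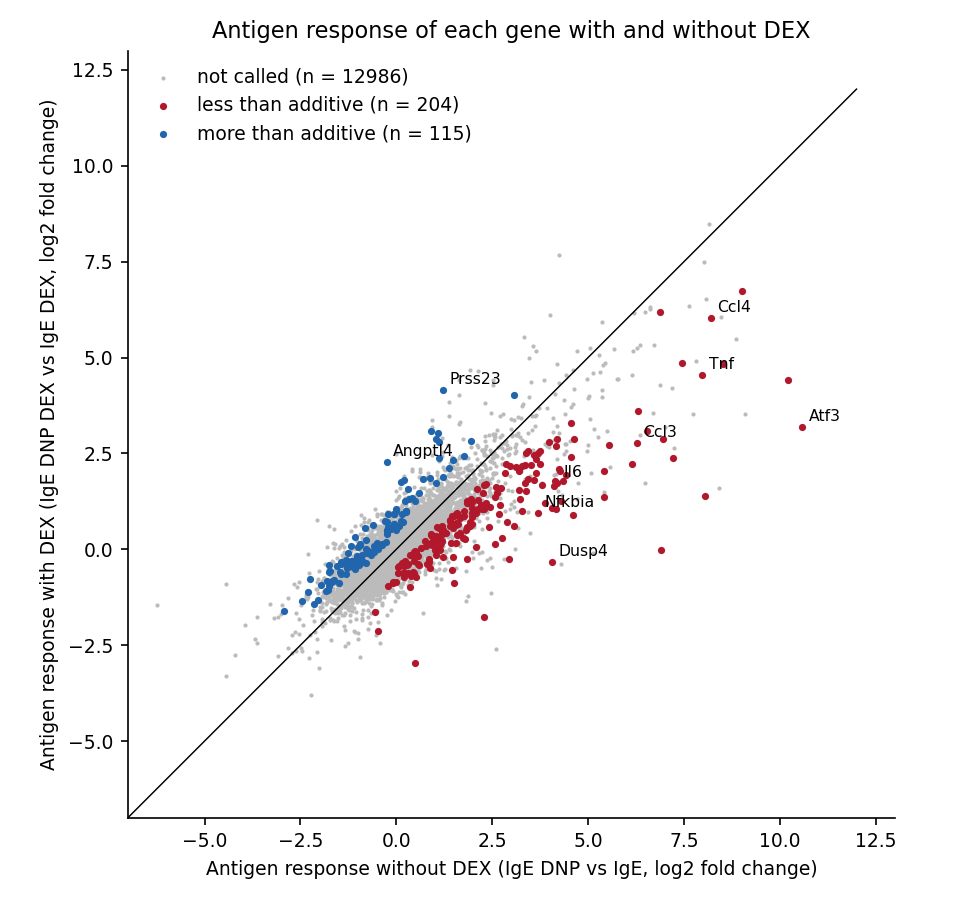
Log2 antigen response of the 13305 genes tested without DEX (x axis) and with DEX (y axis), with the line of equal response. The 204 genes with a less than additive response (red) lie below the line and the 115 with a more than additive response (blue) above it. Ccl4 (8.20 without DEX, 6.02 with DEX) and Atf3 (10.58 and 3.18) are among the red genes and Angptl4 (-0.24 and 2.27) among the blue.

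Most genes that fell short of the product had 1 of 2 shapes. Of the 204, 183 (89.7%) were raised by antigen without DEX, against 19.7% of all genes tested. Of these, 73 were not called for DEX alone (the first shape), 95 were also raised by DEX alone (the second shape) and 15 were lowered by it. With DEX present, antigen still raised 131 of the 183, 46 were no longer called and 6 fell. The mean level was lowest in IgE for 145 of the 204 (71.1%) and highest in IgE DNP for 144 (70.6%), against 22.6% and 28.6% of all genes tested. Among all genes tested, 1683 were raised by antigen and not called for DEX alone (12.6%), 428 were raised by each agent alone (3.22%) and 516 were raised by antigen and lowered by DEX (3.88%). These counts use the same samples as the interaction and describe its shape.

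The cytokine genes Tnf and Il6 and the chemokine gene Ccl3 had the first shape, induced by antigen and not called for DEX alone. Of 20 cytokine and growth factor genes tested, 7 (35%) were less than additive and none more (median interaction -1.63), against 1.53% and 0.864% of all genes tested. Antigen alone raised 19 of the 20, against 19.7% of all genes tested. The 7 were Il6, Tnf, Lif, Csf1, Osm, Pdgfa and Il1a. Of 13 chemokine genes, Ccl3, Ccl7, Ccl4 and Ccl2 (30.8%) were less than additive and none more (median -0.52).

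Ccl3, a chemokine that draws leukocytes to sites of inflammation, lies at chr11:83647844-83649355 of GRCm38 on the minus strand. It measured 11.8, 6.16, 11.8 and 6.58 CPM in IgE and 1004, 704, 481 and 568 CPM in IgE DNP. In the DEX-treated cells the values were 7.56, 4.00, 11.8 and 5.70 CPM without antigen and 65.2, 47.0, 41.8 and 39.6 CPM with it. Every IgE DNP sample was above every IgE DNP DEX sample, whereas the ranges of IgE and IgE DEX overlapped. Antigen raised Ccl3 by 6.27 ± 0.26 (log2) without DEX and by 2.76 ± 0.24 with DEX, an interaction of -3.51 ± 0.33 (adjusted p = 5.63e-06). The product of the single folds would have given 551 CPM, and 48.4 CPM was measured.

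Tnf, which encodes the inflammatory cytokine that mast cells both store and synthesise (chr17:35199381-35202007), was likewise less than additive. Its level was 1.62, 1.82, 0.819 and 0.566 CPM in IgE and 1.24, 2.02, 0.570 and 0.915 CPM in IgE DEX, with overlapping ranges. Antigen took it to 428, 464, 156 and 185 CPM without DEX and to 25.9, 33.5, 17.8 and 28.5 CPM with DEX. The lowest IgE DNP sample lay well above the highest IgE DNP DEX sample, and the 2 PEP+/+ samples were the highest in IgE DNP. The interaction was -3.44 ± 0.38 (adjusted p = 3.32e-05), and DEX alone changed Tnf by 0.03 ± 0.33 (adjusted p = 0.962).

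Il6, a cytokine of the acute phase response, rose from 31.7, 33.2, 29.6 and 23.8 CPM in IgE to 783, 584, 404 and 439.9 CPM in IgE DNP. With DEX it went from 30.5, 27.4, 22.0 and 19.5 CPM to 87.1, 78.8, 61.7 and 97.5 CPM. No IgE DNP DEX sample reached the lowest IgE DNP sample. The interaction was -2.47 ± 0.22 (adjusted p = 2.49e-06), with -3.11 to -1.89 over the blocks.

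Ccl4, a close relative of Ccl3, was the most abundant of these genes in IgE DNP at 1360.2 ± 356 CPM, against 4.61 ± 0.574 CPM in IgE. It measured 2.20 ± 0.394 CPM in IgE DEX and 141 ± 45.0 CPM in IgE DNP DEX (interaction -2.18 ± 0.36, adjusted p = 0.00141). Ccl7, a monocyte attractant, went from 2.64 to 479 CPM without DEX and from 1.09 to 32.4 CPM with DEX (interaction -2.59 ± 0.36, adjusted p = 0.000297). DEX alone lowered Ccl4 by 1.09 and Ccl7 by 1.28 on the log2 scale, so both also started lower with DEX.

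Lif, a cytokine of the IL6 family, was raised by DEX alone, from 52.8 ± 18.8 CPM to 89.1 ± 33.1 CPM. Antigen took it to 390.0 ± 113 CPM without DEX and to 140.0 ± 26.03 CPM with DEX (interaction -2.16 ± 0.25, adjusted p = 4.6e-05). Csf1, which supports macrophage growth, had an interaction of -1.20 ± 0.20 (adjusted p = 0.00223), and Ccl2, a monocyte attractant already at 178 ± 19.3 CPM in IgE, one of -1.13 ± 0.25 (adjusted p = 0.0156). Without the set term Csf1 and Ccl2 were not called (adjusted p = 0.847 and 0.129), while Ccl3, Ccl4, Ccl7, Il6, Lif and Tnf were.

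**Figure D2:**
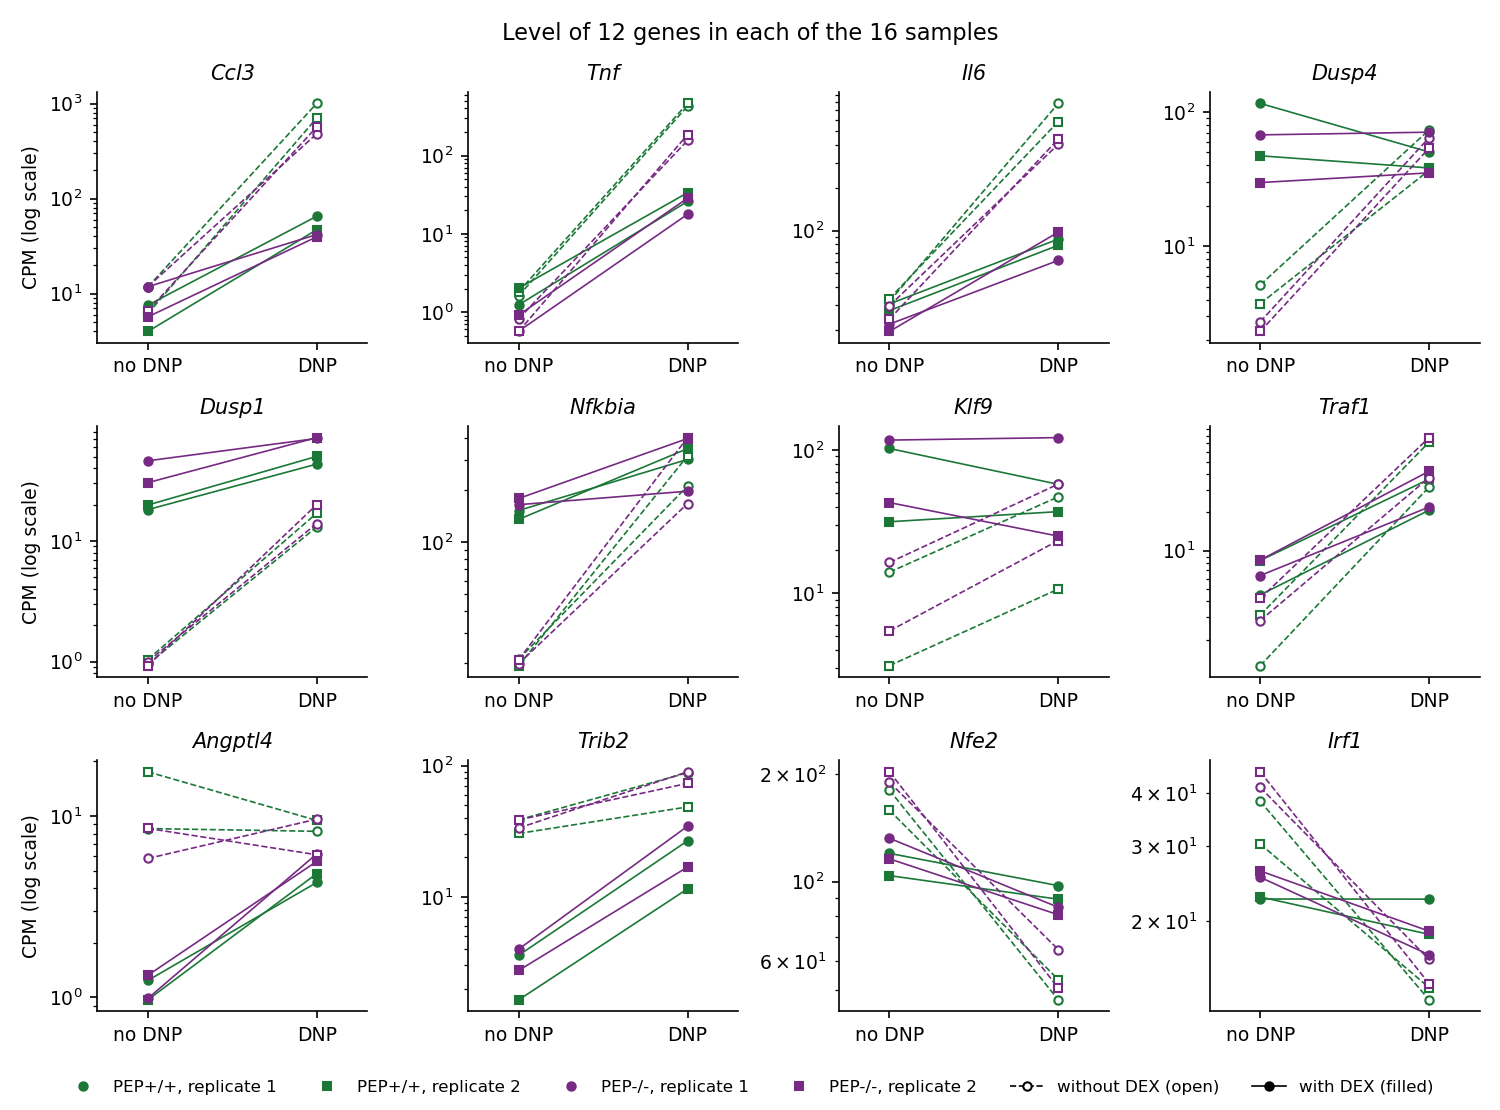
CPM (log scale) of 12 genes in each of the 16 samples, without and with antigen (x axis). Dashed lines with open symbols join the 2 samples of a block without DEX and solid lines with filled symbols those with DEX. The dashed and solid lines of Ccl3, Tnf and Il6 start together and end apart, those of Dusp4 and Nfkbia start apart and end together, those of Klf9 start apart and end closer, and those of Angptl4 and Trib2 start far apart and end closer, with the DEX samples starting lower.

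The study also measured some of these mediators by other means. Il13, a cytokine of allergic inflammation, rose from 4.30 ± 0.928 to 476 ± 217 CPM without DEX and from 0.601 ± 0.430 to 23.0 ± 11.5 CPM with DEX. Its interaction was -1.40 ± 0.43 and was not called (adjusted p = 0.109), while DEX alone lowered Il13 by 2.96 on the log2 scale. Leaving out PEP+/+ IgE DEX replicate 2 took the value to -2.02 with an adjusted p of 0.0053, the only 1 of the 16 such fits in which it was called. DESeq2 called it as well (-1.41, adjusted p = 0.0103), as did edgeR with no filter on low counts (adjusted p = 0.013). Csf2, a growth factor for granulocytes and macrophages, had 0 counts in all 4 IgE DEX samples and in 3 of the 4 IgE samples, so its interaction of -2.42 ± 6.22 (adjusted p = 0.91) was not measurable at this depth.

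Inhibitors of signalling were found in both shapes. Of 30 kinase feedback inhibitors tested, 12 (40%) were less than additive and none more (median interaction -0.86), against 1.53% and 0.864% of all genes tested. They were Dusp4, Dusp1, Dusp8, Dusp10 and Dusp16 (phosphatases of MAP kinases), Spry1, Spry2 and Errfi1 (inhibitors of receptor tyrosine kinase signalling), Cish and Socs3 (inhibitors of cytokine receptors), and Rgs1 and Rgs16 (which turn off G proteins). Antigen alone raised all 12, and DEX alone raised Dusp4, Dusp1, Spry1, Spry2, Cish and Rgs1 and was not called for the other 6. Of 28 NF-kB pathway genes, 8 were less than additive (Traf1, Nfkbia, Tnfaip3, Nfkb1, Map3k8, Nfkbid, Tnip1 and Nfkbiz) and 1 more (Relb). The median of that list was -0.25. Antigen alone raised all 8, and DEX alone raised 6 of them and lowered Nfkbid and Nfkbiz.

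Dusp4 (chr8:34807297-34819894) had the largest interaction among genes with at least 10 counts in every sample. It was at 5.14, 3.73, 2.73 and 2.31 CPM in IgE and rose to 73.6, 36.8, 64.4 and 53.8 CPM with antigen alone. DEX alone took it to 116, 47.2, 67.6 and 29.8 CPM, and both agents to 50.4, 38.3, 70.8 and 35.2 CPM. The 4 IgE samples were the lowest, and the ranges of the other 3 treatments overlapped one another. Antigen changed it by 4.06 ± 0.25 without DEX and by -0.33 ± 0.20 with DEX (interaction -4.39 ± 0.32, adjusted p = 3.25e-07). The product of the folds, 1069.8 CPM, was not reached, the measured mean being 0.0455 times that level.

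Dusp1, an early phosphatase of p38 and JNK and a textbook target of DEX (chr17:26505590-26562128), was highest with both agents. It was at 0.955, 1.04, 1.00 and 0.926 CPM in IgE, 13.1, 17.0, 13.9 and 20.03 CPM in IgE DNP and 18.2, 19.9, 46.2 and 30.4 CPM in IgE DEX. With both agents it reached 43.4, 50.2, 70.7 and 71.8 CPM. No sample of IgE DNP reached the lowest sample of IgE DNP DEX. Its interaction was -2.99 ± 0.32 (adjusted p = 1.78e-05), the product of the folds being 467 CPM against 59.0 CPM measured. On the linear scale the sum of the 2 CPM differences would have given 43.7 CPM, so there the departure had the opposite sign in all 4 blocks. The annotated model of Dusp1 overlaps Ergic1 on the other strand, and the strand setting of the counting is not given in the sources used here.

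Nfkbia (chr12:55489410-55492647) encodes IκBα, which holds NF-kB in the cytoplasm. It measured 21.1, 19.3, 19.8 and 20.9 CPM in IgE and 212, 317, 168 and 405 CPM in IgE DNP. DEX alone brought it to 153, 136, 165 and 179.7 CPM and both agents to 303, 349, 198 and 399.7 CPM. The IgE samples were lowest, IgE DEX came next with overlap into IgE DNP, and the ranges of IgE DNP and IgE DNP DEX overlapped. The antigen response was 3.71 ± 0.21 without DEX and 0.94 ± 0.18 with DEX (interaction -2.77 ± 0.27, adjusted p = 7.3e-06). DEX raised Nfkbia by 2.97 ± 0.20 alone and by 0.20 ± 0.18 in cells given antigen (adjusted p = 0.416).

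Tnfaip3 (A20), which removes ubiquitin chains on the way to NF-kB, went from 48.8 ± 6.74 to 452 ± 117 CPM without DEX and from 135 ± 24.02 to 400.0 ± 72.4 CPM with DEX (interaction -1.64 ± 0.20, adjusted p = 7.79e-05). Nfkb1, the precursor of the p50 subunit, had an interaction of -1.32 ± 0.17 (adjusted p = 0.000137), and antigen and DEX alone raised it by 1.98 ± 0.12 and 1.25 ± 0.12. Traf1, an adaptor of TNF receptors, measured 1.25, 3.12, 2.82 and 4.22 CPM in IgE, 31.7, 71.3, 37.6 and 77.4 CPM in IgE DNP, 4.50, 8.37, 6.38 and 8.44 CPM in IgE DEX and 20.8, 36.5, 22.1 and 42.2 CPM in IgE DNP DEX (interaction -2.14 ± 0.20, adjusted p = 4.61e-06). Set 2 was the higher set for Traf1 in each genotype and treatment. Relb, an NF-kB subunit, went the other way: DEX lowered it from 14.3 to 5.05 CPM without antigen, and antigen raised it to 124 CPM without DEX and 83.3 CPM with DEX (interaction 0.95 ± 0.21, adjusted p = 0.0167). The Relb value was 0.76 and not called without PEP+/+ IgE DEX replicate 2 (adjusted p = 0.0643). Without the set term Traf1 and Relb were not called (adjusted p = 0.127 and 0.965).

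Among the other feedback inhibitors, Cish, which curbs STAT5 signalling, went from 66.8 ± 36.0 to 340.4 ± 129 CPM without DEX and from 162 ± 77.8 to 243 ± 104 CPM with DEX (interaction -1.84 ± 0.26, adjusted p = 0.000369; 0.42 without the set term). Spry2, an inhibitor of the Ras pathway, had an interaction of -1.12 ± 0.15 (adjusted p = 0.00027) and rose with antigen in both arms, by 3.28 ± 0.11 and 2.16 ± 0.11.

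The 250 bases before RefSeq's start of 4 of these genes are shown because they represent both shapes, Ccl3 and Tnf for antigen alone and Nfkbia and Dusp1 for both agents. The sequences are RefSeq's for GRCm38.p6, all from the minus strand, written 5′ to 3′, at chr11:83649379-83649628 (Ccl3), chr17:35202008-35202257 (Tnf), chr12:55492648-55492897 (Nfkbia) and chr17:26508473-26508722 (Dusp1). Capitals mark matches to the motifs named after them.
Ccl3: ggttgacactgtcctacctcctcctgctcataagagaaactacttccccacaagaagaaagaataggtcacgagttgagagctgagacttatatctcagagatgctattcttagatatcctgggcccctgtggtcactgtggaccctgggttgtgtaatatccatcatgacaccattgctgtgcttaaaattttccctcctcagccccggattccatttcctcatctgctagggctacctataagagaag
Tnf: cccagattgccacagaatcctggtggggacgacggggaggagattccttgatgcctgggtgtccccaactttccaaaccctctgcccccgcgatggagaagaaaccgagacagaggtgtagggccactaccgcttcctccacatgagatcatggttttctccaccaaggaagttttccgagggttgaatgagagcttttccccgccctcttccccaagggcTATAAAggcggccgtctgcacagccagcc
Nfkbia: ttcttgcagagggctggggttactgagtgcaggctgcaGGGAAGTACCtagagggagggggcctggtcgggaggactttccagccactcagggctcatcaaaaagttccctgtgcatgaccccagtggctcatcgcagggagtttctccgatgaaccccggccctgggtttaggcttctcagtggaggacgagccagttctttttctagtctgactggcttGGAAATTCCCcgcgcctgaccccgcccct
Dusp1: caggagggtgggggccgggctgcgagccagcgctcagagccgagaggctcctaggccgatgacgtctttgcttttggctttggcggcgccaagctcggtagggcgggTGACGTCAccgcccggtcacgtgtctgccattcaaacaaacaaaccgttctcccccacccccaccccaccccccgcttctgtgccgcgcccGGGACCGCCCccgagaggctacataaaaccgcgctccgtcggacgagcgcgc
Nfkbia held the NF-kB letters GGGANNNNCC at -212 to -203 and at -29 to -20, counted back from the start. Dusp1 held them at -52 to -43 and the cAMP response element TGACGTCA at -143 to -136. Tnf held the letters TATAAA at -29 to -24, and no motif of the search matched in the Ccl3 window.

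Such promoter windows were found for 156 of the 204 less than additive genes, 83 of the 115 more than additive genes and 9594 of all 13305. Both strands were searched. The NF-kB letters stood in 33.3% of the first, 43.4% of the second and 25.7% of all windows. The AP-1 letters TGANTCA stood in 11.5%, 15.7% and 5.48%, and the cAMP response element in 8.33%, 0% and 3.02%. The TATA letters were in 13.5%, 8.43% and 7.6%. The STAT letters TTCNNNGAA were in 9.62%, 10.8% and 7.29%, the CArG box in 3.21%, 0% and 1.34%, and the EGR letters GCGTGGGCG in 1.92%, 1.2% and 1.34%. The glucocorticoid response element GNACANNNTGTNC was in 0.641%, 0% and 0.313% of these short windows. Matches of 2 different motifs overlapped in 20 of the 9594 windows. A match is a description of the letters and not a bound site.

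Jcad, a protein of endothelial cell junctions, was at 10.3 to 19.1 CPM in IgE, 91.0 to 121 CPM in IgE DNP, 133 to 272 CPM in IgE DEX and 118 to 240.0 CPM in IgE DNP DEX (interaction -3.19 ± 0.24, adjusted p = 3.25e-07). Plaur, the urokinase receptor, rose with antigen from 4.80 ± 1.20 to 102 ± 20.8 CPM without DEX and from 18.1 ± 5.15 to 70.0 ± 4.52 CPM with DEX (interaction -2.49 ± 0.25, adjusted p = 7.91e-06). Serpina3f and Gm20400 were also among the largest, and both are uncertain: Serpina3f belongs to a family of near-identical genes and Gm20400 lies antisense within Slco1a6. Serpina3f measured 1.03 to 4.51 CPM in IgE and 315 to 582 CPM in IgE DNP DEX, above both single agents (53.9 to 168 and 21.1 to 152 CPM), with an interaction of -2.81 ± 0.48 (adjusted p = 0.00242). Gm20400 had an interaction of -2.56 ± 0.39 (adjusted p = 0.000835).

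**Figure D3:**
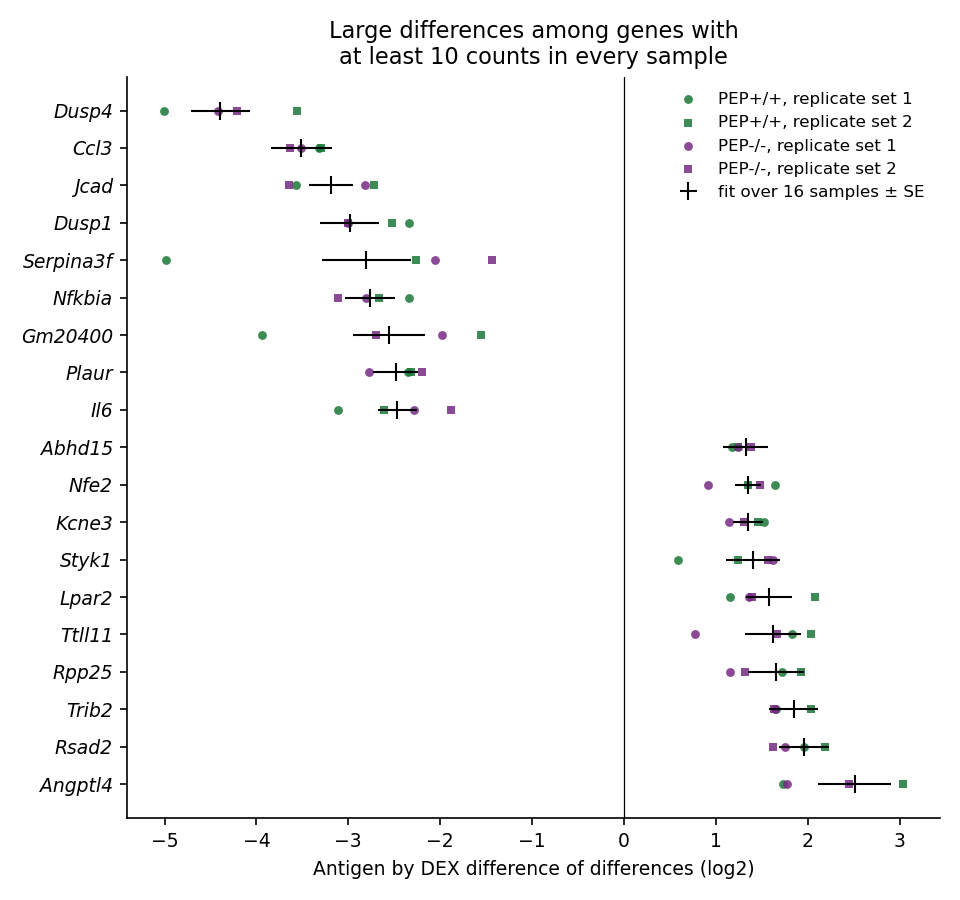
Interaction (log2, x axis) of genes with the largest less and more than additive responses among those with at least 10 counts in every sample. Coloured symbols are the 4 blocks and the black bar is the fit over 16 samples with its SE. Only genes with 1 sign in all 4 blocks were eligible, so every block lies on the same side of 0 as its gene's fit by choice. Serpina3f spreads widest, from -4.98 to -1.44.

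Immediate early transcription factors were raised by antigen in 30 of 31 genes tested without DEX and in 27 with DEX, against 19.7% and 20.1% of all genes tested. Of the 31, Atf3, Nfil3, Maff, Egr1, Nr4a3 and Fosl2 were less than additive and Irf1 more (median interaction -0.67). The called members were 22.6% of the list, against 2.4% of all genes tested. Atf3, a repressor of inflammatory genes, had the most negative value of all genes, but its IgE samples held few reads. It measured 0.0735, 0, 0.0911 and 0.154 CPM in IgE and 114, 195, 95.5 and 183 CPM in IgE DNP. In DEX-treated cells it measured 1.498, 0.967, 5.55 and 1.32 CPM, and 14.1, 23.1, 26.3 and 25.2 CPM with antigen. Every IgE DNP sample stood above every IgE DNP DEX sample, and every IgE DEX sample above every IgE sample. The interaction was -7.40 ± 0.85 (adjusted p = 4.6e-05), its size uncertain because of the near-zero IgE level.

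Nfil3, a bZIP repressor, went from 3.00 ± 0.570 to 47.0 ± 7.38 CPM without DEX and from 3.67 ± 0.704 to 25.5 ± 5.44 CPM with DEX (interaction -1.19 ± 0.18, adjusted p = 0.000809; 0.0812 without the set term). Maff, a small Maf protein, rose from 0.158 to 7.25 CPM and from 1.18 to 3.03 CPM (interaction -4.07 ± 0.67, adjusted p = 0.00163). The IgE level of Maff was close to 0, so the size is uncertain. Trib1, a pseudokinase, and Mst1r, a receptor tyrosine kinase, were 2 further genes with few IgE reads. Trib1 reached 33.4 to 39.5 CPM in IgE DNP and 16.4 to 27.0 CPM in IgE DNP DEX (interaction -3.67 ± 0.79, adjusted p = 0.0148). Mst1r had no read in any IgE sample, 4.27 to 16.1 CPM in IgE DNP, 0 to 0.104 CPM in IgE DEX and 0.626 to 2.66 CPM in IgE DNP DEX. No fold against IgE is given for Mst1r, and the size of its interaction was not measurable at this depth. Its interaction was called with an adjusted p of 0.0294, on levels at or near 0 in both treatments without antigen. Without the set term neither was called (adjusted p = 0.137 and 0.49). Of the 16 fits that left out 1 sample, Trib1 lost the call in 2 and Mst1r in 6.

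Ptgs2, the inducible cyclooxygenase of prostaglandin synthesis, was one of the genes the study measured further. It was at 0.514, 0.0867, 0.728 and 0.154 CPM in IgE and 62.7, 41.2, 38.9 and 42.8 CPM in IgE DNP. With DEX it was at 3.39, 1.05, 12.3 and 2.95 CPM, and with both agents at 11.1, 13.2, 54.6 and 18.9 CPM. PEP-/- IgE DNP DEX replicate 1 lay above 3 of the 4 IgE DNP samples, while the other 3 lay below all of them. The interaction was -4.83 ± 0.77 (adjusted p = 0.00119), with few IgE reads, and -4.91 to -3.34 over the blocks. Ptgds, which makes prostaglandin D2, rose with DEX alone to 9.37 ± 5.00 CPM and stood at 9.24 ± 3.89 CPM with both agents. All samples without DEX held 0 to 0.0946 CPM, so its interaction of -0.77 ± 1.36 (adjusted p = 0.857) was not measurable at this depth. Ptgir, the prostacyclin receptor, was more than additive (0.84 ± 0.21, adjusted p = 0.0395), a call lost in 11 of 16 fits that left out 1 sample and without the set term (adjusted p = 1).

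Of 39 glucocorticoid target genes tested, 13 were less than additive and 3 more (median interaction -0.37), with 41% called against 2.4% of all genes tested. Those below were Nfkbia, Dusp1, Bcl2l11, Tnfaip3, Cdkn1a, Klf9, Sgk1, Per1, Rhob, Irs2, Klf13, Rasd1 and Errfi1. Not all 13 rose with DEX alone. Bcl2l11 was at 12.4 to 15.2 CPM in IgE and 10.0 to 15.6 CPM in IgE DEX, and Errfi1 at 7.63 to 13.4 and 5.51 to 15.0 CPM. Those above were Ddit4, Angptl4 and Pik3ip1. Several also sit in other lists used here, so the lists are not independent. Fkbp5 and Tsc22d3, textbook targets of the receptor, were not called by edgeR. Fkbp5, a chaperone partner of the receptor, measured 97.2 ± 23.2, 96.1 ± 12.7, 929 ± 166 and 864 ± 106 CPM in IgE, IgE DNP, IgE DEX and IgE DNP DEX (interaction -0.09 ± 0.13, adjusted p = 0.793). Tsc22d3, which encodes GILZ, measured 114 ± 22.7, 60.0 ± 10.9, 995 ± 202 and 797 ± 70.7 CPM in the same order (interaction 0.61 ± 0.19, adjusted p = 0.11). DESeq2 called Tsc22d3 as more than additive (0.61, adjusted p = 0.0458), as did edgeR with no filter on low counts (adjusted p = 0.0351) and without PEP+/+ IgE DNP replicate 2 (0.75, adjusted p = 0.0382). Rplp0, a ribosomal protein used as a reference gene, had an interaction of 0.13 ± 0.15 (adjusted p = 0.756).

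Klf9, Sgk1, Ddit4 and Pik3ip1, like Relb above, were described after their values had been seen. Klf9, a zinc finger factor and direct receptor target, measured 14.03, 3.12, 16.4 and 5.45 CPM in IgE and 47.1, 10.7, 57.8 and 23.3 CPM in IgE DNP. DEX alone gave 102, 31.5, 117 and 42.9 CPM and both agents 57.5, 37.1, 122 and 25.03 CPM. Set 1 was the higher set in each genotype and treatment, and IgE DNP DEX lay above IgE DEX in 2 of the 4 blocks and below it in the other two. The interaction was -2.12 ± 0.27 (adjusted p = 0.00016), lost without the set term (adjusted p = 0.826). Sgk1, a kinase of ion transport, was not called for DEX alone, with 1.96, 16.1, 2.67 and 4.19 CPM in IgE, IgE DNP, IgE DEX and IgE DNP DEX (interaction -2.45 ± 0.32, adjusted p = 0.000184). Per1, a clock repressor, rose with DEX from 31.2 ± 6.46 to 195 ± 44.2 CPM. Antigen raised it by 0.44 ± 0.10 without DEX and lowered it by 0.60 on the log2 scale with DEX (interaction -1.04 ± 0.14, adjusted p = 0.000268; 0.338 without the set term).

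Ddit4, an inhibitor of mTORC1, was raised by DEX and lowered by antigen. It measured 129, 116, 148 and 176 CPM in IgE, 24.1, 19.1, 31.8 and 28.1 CPM in IgE DNP, 495, 479, 671 and 695 CPM in IgE DEX and 234, 217, 243 and 208 CPM in IgE DNP DEX. The 4 treatments did not overlap, and IgE DNP DEX stood between IgE and IgE DEX. Antigen lowered Ddit4 by 2.47 on the log2 scale without DEX and by 1.35 with DEX (interaction 1.12 ± 0.16, adjusted p = 0.000381). Pik3ip1, an inhibitor of PI3 kinase, had the same order, at 121, 24.4, 377 and 171 CPM (interaction 1.20 ± 0.19, adjusted p = 0.00116). For both genes the CPM differences of antigen were larger with DEX than without it, so the sign on the linear scale was negative in all 4 blocks.

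The 115 genes above the product also had several shapes. Without DEX, antigen lowered 68 of these (59.1%) and raised 20 (17.4%), and 27 (23.5%) were not called. The shares of all genes tested were 20.8%, 19.7% and 59.4%. With DEX present, antigen lowered 37 (32.2%) and raised 50 (43.5%), and 28 (24.3%) were not called, against 21%, 20.1% and 58.9%. DEX alone lowered 58 (50.4%) and raised 20 (17.4%), against 15% and 14.2% of all genes tested. The shares raised by antigen without DEX and by DEX alone were thus near those of all genes. The mean level was highest in IgE for 43 and in IgE DNP DEX for 41, and lowest in IgE DNP for 63 and in IgE DEX for 42. These are 37.4%, 35.7%, 54.8% and 36.5% of the 115, against 22.8%, 21.6%, 27.7% and 25.3% of all genes tested.

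Angptl4, an inhibitor of lipoprotein lipase (chr17:33773750-33781830), had the largest positive value among genes with at least 10 counts in every sample. Its levels were 8.52, 17.5, 5.83 and 8.54 CPM in IgE and 8.23, 9.45, 9.60 and 6.11 CPM in IgE DNP. They were 1.24, 0.967, 0.985 and 1.32 CPM in IgE DEX and 4.30, 4.81, 6.18 and 5.61 CPM in IgE DNP DEX. The IgE DEX samples stood below all others, and IgE and IgE DNP overlapped. Antigen changed it by -0.24 ± 0.24 without DEX and by 2.27 ± 0.32 with DEX (interaction 2.51 ± 0.40, adjusted p = 0.00107).

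Trib2, a pseudokinase that targets C/EBPα for degradation, was lowered by DEX and raised by antigen in both arms. It measured 38.6, 30.4, 33.4 and 38.5 CPM in IgE and 88.1, 48.4, 89.6 and 73.1 CPM in IgE DNP. With DEX it went from 3.58, 1.64, 3.99 and 2.75 CPM to 26.7, 11.5, 34.5 and 16.8 CPM. Each DEX-treated sample with antigen stayed below each IgE DNP sample. The interaction was 1.85 ± 0.27 (adjusted p = 0.000467), and in CPM the rise was smaller with DEX in all 4 blocks. Without the set term it was not called (adjusted p = 0.119).

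Rsad2 (viperin), an antiviral protein induced by interferon, measured 2.57, 1.82, 4.64 and 2.73 CPM in IgE and 7.19, 2.36, 10.99 and 5.17 CPM in IgE DNP, ranges that overlapped. With DEX it rose from 0.652, 0.631, 1.66 and 1.02 CPM to 8.20, 4.37, 14 and 6.47 CPM, with no overlap (interaction 1.96 ± 0.27, adjusted p = 0.000274; 0.296 without the set term). Rpp25, a subunit of RNase P, followed it with 1.66 ± 0.30 (adjusted p = 0.0042; 0.078 without the set term). Lpar2, a receptor of lysophosphatidic acid, was at 7.86 ± 3.04 and 9.04 ± 3.26 CPM without DEX and at 2.70 ± 0.752 and 8.91 ± 1.11 CPM with DEX (interaction 1.58 ± 0.25, adjusted p = 0.00102; 0.338 without the set term). Ttll11, a tubulin-modifying enzyme, was highest where both agents met, with 1.75 ± 0.191 CPM in IgE, 1.92 ± 0.344 in IgE DNP, 2.35 ± 0.618 in IgE DEX and 7.91 ± 2.25 in IgE DNP DEX. Its antigen response was 0.13 ± 0.24 without DEX (adjusted p = 0.691) and 1.75 ± 0.19 with DEX (adjusted p = 1.27e-06), and the interaction 1.62 ± 0.31 (adjusted p = 0.00581; 0.0823 without the set term).

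Nfe2, a transcription factor of the megakaryocyte and erythroid lines that mast cells also express, was lowered by each agent alone. It stood at 180.2, 158, 189.6 and 203 CPM in IgE and 46.8, 53.3, 64.6 and 50.5 CPM in IgE DNP. DEX alone gave 120.0, 104, 132 and 116 CPM and both agents 97.5, 89.4, 84.9 and 80.9 CPM. The 4 treatments did not overlap, with IgE highest, then IgE DEX, IgE DNP DEX and IgE DNP. The folds multiplied to 34.8 CPM, against 88.2 CPM measured (interaction 1.35 ± 0.14, adjusted p = 1.78e-05).

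Irf1, a transcription factor of the interferon response, had the same form. It measured 38.3, 30.4, 41.2 and 44.9 CPM in IgE, 13.1, 13.95, 16.2 and 14.3 CPM in IgE DNP, 22.5, 22.8, 25.4 and 26.2 CPM in IgE DEX and 22.5, 18.6, 16.7 and 18.9 CPM in IgE DNP DEX. IgE was the highest and every IgE DNP DEX sample was above every IgE DNP sample (interaction 1.09 ± 0.17, adjusted p = 0.000886). Kcne3, a potassium channel subunit, went from 28.8 ± 3.22 CPM in IgE to 16.4 ± 2.68 CPM in IgE DNP and 14.5 ± 2.56 CPM in IgE DEX, with 21.2 ± 3.16 CPM for both (interaction 1.35 ± 0.16, adjusted p = 7.79e-05). Antigen thus lowered Kcne3 without DEX and raised it with DEX (0.55 ± 0.12, adjusted p = 0.00103). Styk1, a kinase-like membrane protein, had 1.40 ± 0.29 (adjusted p = 0.0126), and Abhd15, which takes part in the control of lipolysis, 1.32 ± 0.24 (adjusted p = 0.0042). The Abhd15 model overlaps others on the opposite strand, and its value is uncertain. Without the set term Styk1 and Abhd15 were not called (adjusted p = 0.332 and 0.915).

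Genes with lower counts were called as well, their size uncertain. Prss23, a serine protease with the antisense gene Prss23os at its locus, fell with DEX alone from 3.84 to 0.0998 CPM and measured 0.391 to 2.44 CPM with both agents (interaction 2.92 ± 0.54, adjusted p = 0.00447). Its value was 1.82 and not called without PEP+/+ IgE DEX replicate 2 (adjusted p = 0.14), nor was it called without the set term (adjusted p = 1). Rtn4rl1, a Nogo receptor homologue, had 2.20 ± 0.37 (adjusted p = 0.00215), and Fbxo32 (atrogin-1), a ubiquitin ligase of muscle wasting, 1.49 ± 0.33 (adjusted p = 0.0172). Fbxo32 lost its call in 3 of the 16 fits that left out 1 sample and without the set term (adjusted p = 0.194).

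**Figure D4:**
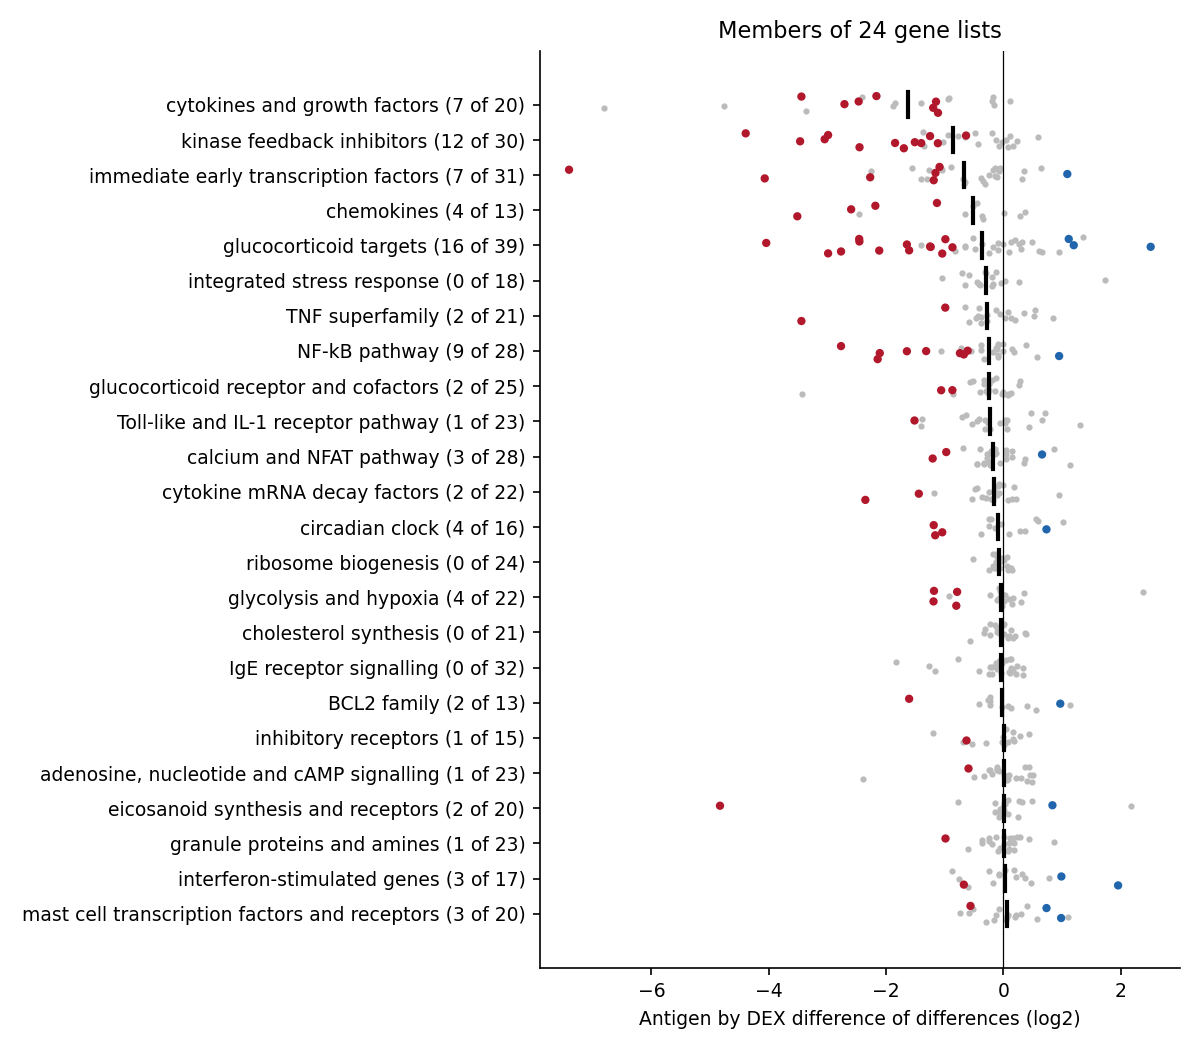
Interaction (log2, x axis) of the tested members of 24 gene lists, ordered by their median (black bar). Grey points were not called, red points were less and blue points more than additive, and the numbers after each name are called members of tested members. The medians run from -1.63 (cytokines and growth factors) to 0.0688 (mast cell transcription factors and receptors), against 0.00127 for all genes.

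The remaining lists held 0 to 4 called members each, and 2.4% of all genes tested were called. At that share, a list this short with no call or 1 call does not stand apart from other genes. By edgeR none of 32 IgE receptor signalling genes was called, the median being -0.038, and the smallest adjusted p was that of Ptpn22 itself. Ptpn22 is near 0 in 8 of the samples, and its interaction was -1.83 ± 0.48 (adjusted p = 0.0514). Within the PEP+/+ samples it measured 15.9 and 11.3 CPM in IgE, 80.0 and 104 CPM in IgE DNP, 66.5 and 71.6 CPM in IgE DEX, and 160.4 and 175 CPM in IgE DNP DEX. limma-voom called Ptpn22 (-1.62, adjusted p = 0.0345), as did edgeR with no filter on low counts (-1.81, adjusted p = 0.000139) and on set 2 alone (-2.18, adjusted p = 0.0364). It was also called, at -2.31 to -1.53, without PEP+/+ IgE replicate 1, PEP+/+ IgE DNP replicate 1, PEP+/+ IgE DNP DEX replicate 1, PEP-/- IgE DEX replicate 2 or PEP-/- IgE DNP replicate 2. None of 21 cholesterol synthesis, 24 ribosome biogenesis and 18 integrated stress response genes was called (medians -0.042, -0.077 and -0.30).

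Hdc, which makes histamine, was the called member of 23 granule protein and amine genes. It measured 105, 62.8, 73.7 and 86.2 CPM in IgE, 748, 572, 676 and 863 CPM in IgE DNP, 438, 243, 463 and 387 CPM in IgE DEX and 1796, 1429, 1662 and 1729 CPM in IgE DNP DEX. The 4 treatments did not overlap, and the level with both agents was the highest. The interaction was -0.99 ± 0.23 (adjusted p = 0.0223), yet the sum of the CPM differences, 1016 CPM, lay below the 1654 CPM measured. The call was lost in 6 of 16 fits that left out 1 sample (adjusted p up to 0.0815) and without the set term (adjusted p = 0.29).

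Of 28 calcium and NFAT genes, Rcan1, a calcineurin inhibitor and NFAT target, had -1.20 ± 0.19 (adjusted p = 0.00107), Nfatc1 -0.97 ± 0.20 (adjusted p = 0.00951) and Kcnn4, a calcium-gated potassium channel, 0.66 ± 0.15 (adjusted p = 0.0252). Of 22 cytokine mRNA decay factors, Zc3h12c, an RNase of the regnase family, had -2.35 ± 0.25 (adjusted p = 1.78e-05) and Btg1, which recruits deadenylase, -1.44 ± 0.14 (adjusted p = 7.3e-06). Zc3h12c went from 11.2 ± 4.71 to 194 ± 56.2 CPM without DEX and from 22.6 ± 3.50 to 79.0 ± 24.9 CPM with DEX. Of 23 Toll-like and IL-1 receptor genes, Nlrp3, the inflammasome sensor, had -1.52 ± 0.18 (adjusted p = 7.94e-05). Without the set term Nfatc1 and Kcnn4 were not called (adjusted p = 0.15 and 1), and Kcnn4 lost its call in 6 of 16 fits that left out 1 sample.

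Among 13 genes of the BCL2 family, Bcl2l11 (BIM), which promotes apoptosis, went from 13.5 ± 1.28 to 147 ± 15.4 CPM without DEX and from 13.6 ± 2.50 to 48.7 ± 10.6 CPM with DEX (interaction -1.61 ± 0.18, adjusted p = 3.85e-05). Bbc3 (PUMA), another promoter of apoptosis, went the other way, from 48.3 ± 12.2 to 90.3 ± 24.4 CPM without DEX and from 33.1 ± 6.53 to 118 ± 14.7 CPM with DEX (interaction 0.97 ± 0.18, adjusted p = 0.00398; 0.424 without the set term). Both are BH3-only proteins, and both rose with antigen in either arm.

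Of 22 glycolysis and hypoxia genes, 4 were less than additive: Ndrg1, a stress-induced protein (-1.18 ± 0.23, adjusted p = 0.00605), Hk2, the inducible hexokinase (-1.19 ± 0.24, 0.00791), Slc2a1, the glucose transporter GLUT1 (-0.80 ± 0.19, 0.0281), and Pfkfb3, which activates phosphofructokinase (-0.79 ± 0.19, 0.0348). Hk2 rose with antigen without DEX from 25.3 ± 3.58 to 46.4 ± 11.6 CPM and measured 14.4 ± 2.24 and 11.4 ± 3.01 CPM with DEX. None of the 4 was called without the set term (adjusted p from 0.0583 to 1), and Slc2a1 and Pfkfb3 lost the call in 8 and 12 of 16 fits that left out 1 sample. Of 16 clock genes, Per1, Nfil3 and Hlf (-1.16 ± 0.23, adjusted p = 0.00854) were less and Cry2 (0.74 ± 0.13, adjusted p = 0.00363) more than additive. Of 17 interferon-stimulated genes, Rsad2 and Usp18 (0.99 ± 0.22, adjusted p = 0.0189) were more and Irf9 (-0.67 ± 0.16, adjusted p = 0.0345) less than additive. Irf9 shares its locus with Rnf31 and is uncertain. Hlf, Usp18 and Irf9 were not called without the set term (adjusted p = 0.597, 0.204 and 0.904).

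The 25 glucocorticoid receptor and cofactor genes held 2 called members, Dnajb1, a chaperone of the HSP40 family (-0.87 ± 0.14, adjusted p = 0.00176), and Ncoa1, a receptor coactivator (-1.06 ± 0.26, adjusted p = 0.0395). The 21 genes of the TNF superfamily held Tnf and Tnfsf10 (TRAIL, -0.99 ± 0.19, adjusted p = 0.00744). The 20 mast cell transcription factors and receptors held Tfe3 (-0.56 ± 0.12, adjusted p = 0.0169), Lmo2 (0.74 ± 0.19, adjusted p = 0.0483) and Epor (0.99 ± 0.26, adjusted p = 0.0483), of which Lmo2 and Epor were more than additive. Adora3, an adenosine receptor that overlaps Tmigd3 on its strand and is uncertain, was the called member of 23 adenosine, nucleotide and cAMP genes (-0.60 ± 0.15, adjusted p = 0.0406). Havcr2 (TIM-3), an inhibitory receptor, was that of 15 inhibitory receptors (-0.63 ± 0.15, adjusted p = 0.029). None of these but Tnf was called without the set term (adjusted p from 0.29 to 1), and Ncoa1, Tfe3, Lmo2, Epor, Adora3 and Havcr2 lost their call in 12, 4, 11, 11, 14 and 9 of 16 fits that left out 1 sample.

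Whether a response counts as less or more than additive depends on the scale. On the linear CPM scale, where the expected level is the sum of both differences over IgE, 293 of the 319 kept the sign of their mean departure and 26 had the opposite sign (16 of the 204 and 10 of the 115). In 13 the opposite sign held in all 4 blocks. Ccl3, Tnf, Il6, Ccl4, Dusp4, Nfkbia and Traf1 were below the expected level on both scales in all 4 blocks. Dusp1, Serpina3f, Hdc and Pfkfb3 were below the product and above the sum in all 4, and Trib2, Abhd15, Ddit4, Pik3ip1, Ptgir, Prss23 and Relb above the product and below the sum.

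**Figure D5:**
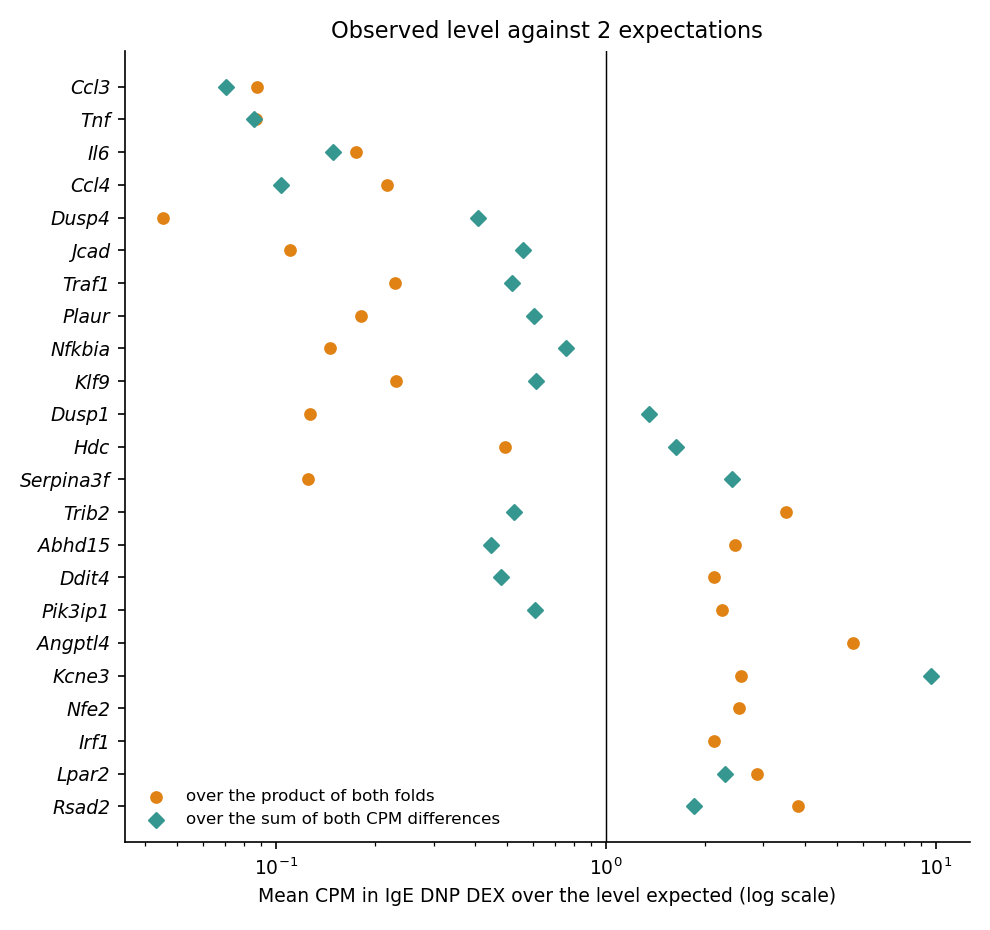
Mean CPM in IgE DNP DEX over the level expected from the single agents (log x axis), as the product of both folds (orange circles) and as the sum of both CPM differences (green diamonds), for 23 genes. No diamond is drawn for Angptl4, Nfe2 and Irf1, where that sum lies below 0. Circles run from 0.0455 for Dusp4 to 5.60 for Angptl4, and for Dusp1, Hdc and Serpina3f the circle is left of 1 and the diamond right of it.

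The interaction was also compared between genotypes. No gene had a called difference between PEP-/- and PEP+/+ (0 of 13305 by edgeR, 178 at an unadjusted p under 0.05, and 0 by DESeq2). Ccl3 had an interaction of -3.27 ± 0.38 in PEP+/+ and -3.69 ± 0.37 in PEP-/-, a difference of -0.42 ± 0.52. For Dusp4 the values were -4.36 ± 0.36 and -4.40 ± 0.37 (difference -0.04 ± 0.50), for Nfkbia -2.52 ± 0.41 and -3.02 ± 0.41 (difference -0.50 ± 0.57), and for Il6 -2.87 ± 0.29 and -2.05 ± 0.29 (difference 0.82 ± 0.40). For Lif they were -2.71 ± 0.31 and -1.64 ± 0.30 (difference 1.07 ± 0.43, unadjusted p = 0.0247 by edgeR). For Prss23, a gene with few reads, they were 4.62 ± 0.70 and 1.46 ± 0.60 (difference -3.16 ± 1.08, unadjusted p = 0.0162 by edgeR). Neither difference was called. A difference that misses the threshold does not show that the genotypes responded alike. Fitted alone, the 8 PEP+/+ samples gave 17 called genes and the 8 PEP-/- samples 156, all 17 of the former and 139 of the latter being among the 319. No gene had a called difference between the replicate sets (0 by edgeR and by DESeq2, 293 at an unadjusted p under 0.05), which likewise does not show that the sets were alike. Of the genes described, Il13 had an interaction of -2.19 in set 1 and -0.26 in set 2 (difference 1.90 ± 0.58, unadjusted p = 0.0053 and adjusted p = 1 by edgeR), and Serpina3f and Lif differed by 1.81 ± 0.71 and 1.00 ± 0.45 (unadjusted p = 0.0224 and 0.0428, adjusted p = 1 for both). Set 1 alone gave 38 and set 2 alone 226 called genes.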

How the data were processed

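RNA-seq of all 16 samples was used. Per the labels and the methods of the study, the authors aligned reads with TopHat2 to GRCm38 and counted them per Ensembl gene with HTSeq; the deposited values are raw counts, and replicates were not pooled. The strand setting of the counting is not given in the sources used here. Of 79 genes described, 6 overlap a gene model on their strand and 21 on the other strand, and such values are uncertain to that extent. Reads not counted to a single gene (29.05 to 49.62% of a sample's total) were left out of library sizes. Most were reads aligned to several places (21.45 to 37.76%). Reads on no gene were 4.69 to 10.98% and ambiguous reads 1.9 to 2.5%.

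Counts were fitted with edgeR 4.0.16 in R 4.3.3 (quasi-likelihood F test, TMM factors 0.821 to 1.18, filterByExpr with a minimum count of 10 over the 8 groups), with genotype, replicate set, antigen, DEX and their interaction as terms and Benjamini-Hochberg adjustment over all 13305 genes tested. The SE is the coefficient over the root of F. The sets paired the samples: samples of the same set deviated together from their group means in all 28 pairs of groups (r = 0.453 to 0.799). Replicate set was a planned term of the comparison, and this pairing was a further reason to keep it. The script was tested on simulated data. DESeq2 1.42.0, limma 3.58.1, other normalizations, filters, subsets and leaving out each sample were tried as alternatives.

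The members and lists were chosen with earlier results of these data known. The genes described are the 10 largest in each direction with at least 10 counts in every sample and 1 sign in all 4 blocks (of which 1 is not reported here), the 5 largest in each direction among other called genes with a treatment mean of at least 5 CPM, up to 4 called members of each list, and Ptpn22, Rplp0 and mediator genes that the study names, with Fkbp5 and Tsc22d3 as known DEX targets. Relb, Klf9, Sgk1, Ddit4 and Pik3ip1 were chosen after their values were seen, as were the list members named without values. Motif letters were searched in RefSeq promoters of GRCm38.p6, matched by symbol.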

Additional observations from a re-analysis of the deposited data

Results flagged for a closer look

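In a group of 4 samples, a value was marked where its gap to the nearest other sample exceeded the share of the group's range set by Dixon's test (the 95% critical value for 4 samples), and 80 groups of the genes shown by sample were examined, 3 of which were marked. Chance marks about 1 in 20 groups. Ccl4 in PEP-/- IgE replicate 2 stood at 3.75 CPM, below the other 3 IgE samples. Atf3 in PEP-/- IgE DEX replicate 1 stood at 5.55 CPM, above the other 3, and without that sample the Atf3 interaction was -6.32, the smallest size among the fits that left out 1 sample. Ptgs2 in PEP+/+ IgE DNP replicate 1 stood at 62.7 CPM, above the other 3. All 3 genes were called in each of the 16 fits that left out 1 sample.

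The share of reads aligned to several places, which the comparisons do not use, had a median of 32.0% in IgE DNP DEX, with 30.3% in the lowest of these samples. The highest IgE sample held 25.56% and the highest IgE DEX sample 27.66%, while the IgE DNP range reached 31.52% and overlapped. Its part in the interactions was not tested.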

How the results depend on the processing

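Of the 319 called genes, those tested under an alternative kept their sign in every fit on the log2 scale. Without the replicate block 71 genes were called (53 less and 18 more than additive), with the antigen responses falling to 2837 (1371 lower, 1466 higher) without DEX and 2470 (1138 and 1332) with DEX, although all 28 pairs of groups showed the pairing. The fit on 8 condition means called 209 (66 more than additive) and DESeq2 495 (197 more than additive), and requiring a size of 1 left 152 (116 and 36). The PEP+/+ samples alone gave 17 (17 and 0), the PEP-/- samples alone 156 (110 and 46), set 1 alone 38 (37 and 1) and set 2 alone 226. limma-voom gave 320, DESeq2's size factors 321, no filter 418 and at least 10 counts in every sample 304. Leaving out 1 sample gave 203 (without PEP-/- IgE DNP replicate 2) to 416 calls (without PEP+/+ IgE DNP DEX replicate 1), of which 127 to 240 were less and 75 to 191 more than additive. The more than additive count was 75 without PEP-/- IgE replicate 1, 76 without PEP+/+ IgE DEX replicate 2, PEP-/- IgE replicate 2 or PEP-/- IgE DNP replicate 2, and 191 without PEP+/+ IgE DNP DEX replicate 1, against 115 with all samples, and the less than additive count was 127 without PEP-/- IgE DNP replicate 2, against 204. The cause of these differences was not tested, and the subsets also held fewer samples.

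Of the 72 genes described that were called, 33 were called without the block, and 54 in each of the 16 fits that left out 1 sample. Genes not called turned sign in subsets, Ptgds to 0.0111 (PEP+/+ only) and 0.0630 (set 1 only) and Fkbp5 to 0.0094 (PEP+/+ only), all near 0. On the linear CPM scale, by its construction, the sign was opposite for Dusp1 (15.36), Serpina3f (253), Gm20400 (16.88), Hdc (638), Havcr2 (35.73), Pfkfb3 (40.95), Trib2 (-20.21), Abhd15 (-21.08), Prss23 (-4.06), Fbxo32 (-0.486), Kcnn4 (-39.94), Ptgir (-7.81), Ddit4 (-243), Pik3ip1 (-110) and Relb (-31). Where IgE held few reads (Atf3, Maff, Trib1, Mst1r, Ptgs2, Csf2 and Ptgds), depth limits the size of the interaction.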
